A study of Rattus norvegicus with 10 samples.

Results

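H3K9me3 is the trimethylation of histone H3 at lysine 9. It is laid down by enzymes such as SUV39H1 and SETDB1, bound by HP1 proteins, and known for keeping repeats and clustered gene families compact and silent. In many cell types it runs in broad stretches that active chromatin avoids. The long H3K9me3 domains described here are runs of neighbouring H3K9me3 peaks on the rat autosomes other than chromosome 12. They were selected on the positions of the deposited H3K9me3 peaks: neighbours at most 12.5 kb apart were merged, and merged regions spanning 100 kb or more were kept. This gave 54 domains among 20502 merged regions on these 19 autosomes and 21727 in the whole series. The domains hold 4023 of all 52431 H3K9me3 peaks. Chromosome 12 alone holds 19 further regions of that span, and X holds 0.

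All libraries came from RCS cells, a line derived from a rat chondrosarcoma, a tumour of cartilage-forming cells, with no treatment in the labels. There is 1 chromatin immunoprecipitation library for each of SOX9, SOX6, H3K27ac, H3K4me1, H3K4me3 and H3K9me3, and there are 4 input libraries without antibody, of which the 3 methylation marks share 1. The comparison addressed here is whether SOX9 and SOX6, the factors that direct chondrocyte gene expression, and the marks of active chromatin are found in, at the ends of, or next to these domains. H3K27ac marks active enhancers and promoters, H3K4me1 mainly enhancers and H3K4me3 mainly promoters. No antibody has a replicate, so no value has a replicate error, and each p-value describes these peak lists only. Values of the domains themselves (number, span, cover, score) follow from the choice of members and are given without a test.

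The domains were broken rows of peaks, not solid blocks. They spanned 11.7 Mb in all, which is 0.433% of the length of the 19 autosomes. The median span was 150.4 kb, with quartiles of 129 and 195 kb and a range from 100.3 to 883 kb. Of the 54, 40 spanned less than 200 kb, and the 7 of 400 kb or more made up 38.1% of the summed span. H3K9me3 peaks lay over 38.7% of the summed span, and over 17.9% to 62.2% of a single domain (median 33.3%). A domain held 21 to 323 H3K9me3 peaks, with a median of 42.5, and the median gap between neighbouring peaks was 835 bp.

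The 100 kb bound falls in a continuous range of spans. Just inside it were regions of 103135 bp on chromosome 7, 102078 bp on chromosome 11 and 100327 bp on chromosome 2. Just outside were regions of 98200 and 95167 bp on chromosome 3 and 97075 bp on chromosome 7. Their H3K9me3 cover was 44.5%, 22.0% and 20.3% for the first group, and 18.97%, 20.1% and 27.1% for the second.

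H3K9me3 peaks of the domains were wider and had higher deposited scores than those elsewhere on the same autosomes. The median width was 847 bp (quartiles 626 and 1330.5 bp), against 691 bp (562 and 931 bp) elsewhere. The median score was 128 (72.8 and 262), against 85.9 (62.7 and 148). Many of the strongest peaks of the active marks share a score of 3100, so scores at the top of a list do not rank its peaks. The 4023 peaks are 8.45% of the H3K9me3 peaks on these autosomes and 10.996% of the length under them.

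Long domains were present on 14 of the 19 autosomes, and none lay on chromosomes 4, 8, 17, 18 or 20. Chromosome 3 carried most per length, with 9 domains and 18.5 kb of domain per Mb. It was followed by chromosome 9 with 9 domains and 14.0 kb per Mb, and by chromosome 6 with 3 domains and 11.2 kb per Mb. Among autosomes with any, chromosomes 2, 11 and 15 had the least, with 1 domain each and 0.352, 1.09 and 1.36 kb per Mb. On chromosome 3 the domains held 34.1% of the H3K9me3 peaks of the chromosome, against 24.2% on chromosome 6 and 12.9% on chromosome 9. On chromosome 12 the corresponding length was 91.9 kb per Mb, with 43.7% of its peaks.

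The input library of the methylation marks also differed between autosomes, and these values stand beside the domain counts. Its density of reads that aligned with no mismatch, taken relative to the median chromosome, reached 2.09 for chromosome 16, 2.08 for chromosome 9 and 1.93 for chromosome 7. Chromosome 11 stood at 1.64, but 55.3% of its input reads had a mismatch and were left out. On chromosomes 16, 7 and 9 that share was 11.7%, 14.6% and 24.6%. Counting all aligned reads, chromosome 11 had 1690420 over 93.5 Mb and chromosome 9 had 1650594 over 121.5 Mb, so the order depends on the reads counted. Chromosomes 3 and 6 stood at 1.18 and 1.12, and chromosome 4, which has no long domain, at 1.23. Over the 19 autosomes, domain length per Mb went with this input at Pearson's r = 0.422 and Spearman's rho = 0.527. Without chromosomes 16 and 9, the 2 farthest from the median input, the values were 0.193 and 0.419. For H3K9me3 peaks per Mb they were 0.860 and 0.868, and 0.716 and 0.819 without chromosomes 16 and 9. These are descriptions over 19 autosomes that share 1 library. The part of the input level in the number of domains was not tested.

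Domains were frequent in the last 10% of chromosomes. The centres of 10 domains fell in the first 10% of their chromosome and 17 in the last 10%, where length runs up to the last peak of any list. Together these are 27 of 54, or 50%. To show what the spacing of the domains alone gives, all domains of an autosome were turned around it together by 1 random distance, 1000 times. These rotations put 10.7 domains in these outer parts on average and up to 30, and 5 of 1000 reached 27. The 17 of the last 10% were reached by 8 rotations, and the 10 of the first 10% by 149. The pair of long domains on chromosome 6 described next fell just short of the last 10%, with centres at 89.1% and 89.6%. Those of the last 10% lay on chromosomes 3, 5, 6, 13, 15 and 19, and those of the first on chromosomes 1, 2 and 9. The last 10% included the groups of 5 and of 3 domains on chromosome 3 described next.

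Neighbouring domains often stood close together. Of the 54, 26 had another within 1 Mb, in 9 groups, and 28 stood alone. The largest group had 5 domains on chromosome 3 from 174501625 to 177682451 (rn5), where domains fill 63.0% of 3.18 Mb with 765 H3K9me3 peaks. A group of 3 lies closer to the end of that chromosome, from 182061820 to 183460285, and domains fill 90.3% of it. A pair on chromosome 6 from 139205394 to 140757476 has 561 peaks in 1.55 Mb, with 13.9 kb between the domains. A group of 4 on chromosome 9 from 11244139 to 13177700 has 397 peaks in 1.93 Mb.

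**Figure D1:**
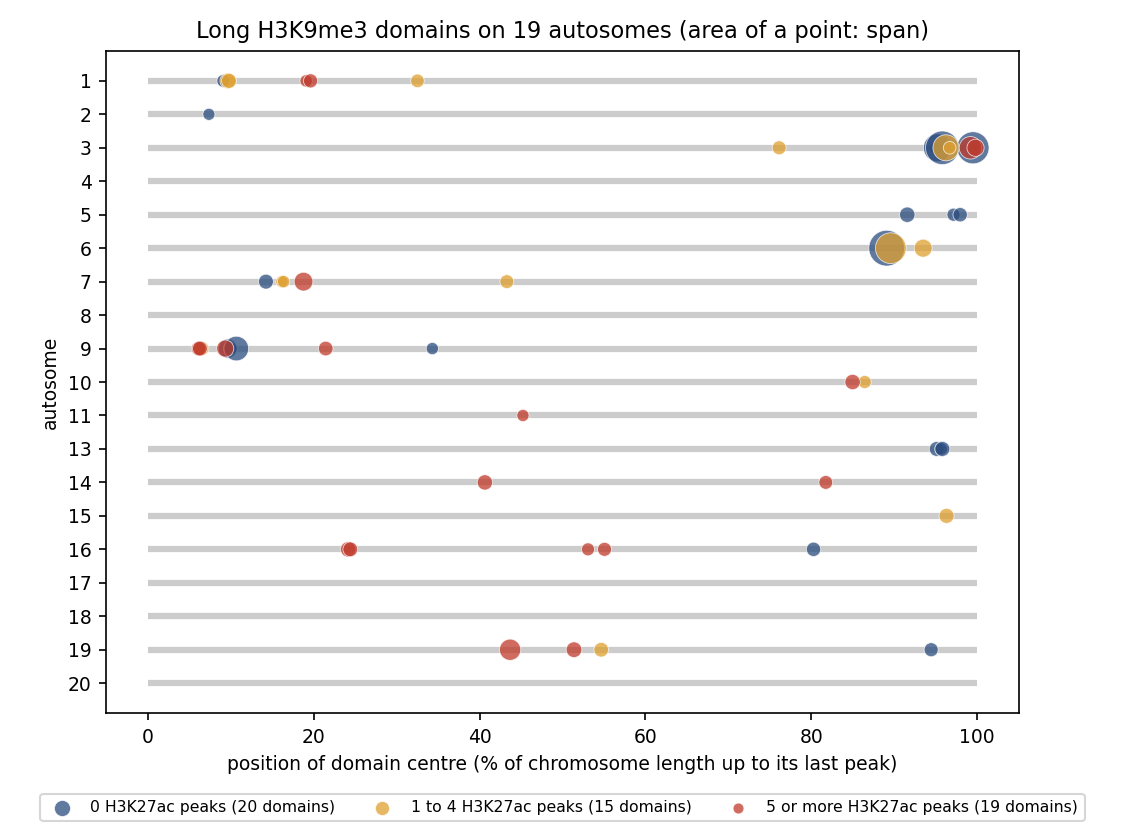
Position of the 54 long H3K9me3 domains. Each grey line is an autosome, the x axis is the centre of a domain in percent of the chromosome length up to its last peak, the area of a point grows with the span, and the colour gives the number of H3K27ac peak centres inside (0 in 20 domains, 1 to 4 in 15, 5 or more in 19). The widest points lie at 95.2% to 99.5% of chromosome 3 and at 89.1% and 89.6% of chromosome 6.

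The 7 longest domains, those of 400 kb or more, on chromosomes 3, 6 and 9, were nearly free of the other 5 lists. With 38.1% of the summed span, these 7 together held 20 of the 1213 peaks of SOX9, SOX6 and the active marks in all 54 domains. None held more than 8. Of these 7, 5 had no H3K27ac peak centre. The first, on chromosome 6 from 139205394 to 140088158 (rn5), spans 883 kb with 322 H3K9me3 peaks over 37.4% of it, and its single foreign peak is of SOX9. The second, on chromosome 3 from 175607057 to 176385138, has H3K9me3 over 42.3% of 778 kb and a single SOX6 peak. The third, on chromosome 3 from 182445134 to 183154462, has the highest cover of all domains, 62.2% of 709 kb, with 1 peak each of SOX9, SOX6 and H3K4me3. The fourth follows the first on chromosome 6, from 140102087 to 140757476 (655 kb, cover 33.0%). The fifth and sixth lie on chromosome 3 from 174635316 to 175167896 (533 kb, 35.3%) and from 176572852 to 177041368 (469 kb, 48.4%). The seventh lies on chromosome 9 from 12760443 to 13177700 (417 kb, 58.1%).

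Of the next 3, 2 held more. The domain on chromosome 3 from 182061820 to 182411709 held 7 H3K27ac and 12 H3K4me1 peaks in 349.9 kb. That on chromosome 19 from 31677653 to 31988614 held 9 and 10 in 311 kb, while that on chromosome 9 from 11596432 to 11849373 held 0 and 1 in 253 kb and 3 peaks of the 5 lists in all. Over all domains, span and H3K27ac cover showed no common order (Spearman's rho = -0.0862 over 54 domains, a description).

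Taken over all 54 domains, SOX9 and SOX6 peaks were about as frequent inside as rotations gave, and none of the 15 comparisons passed an adjusted permutation p of 0.05. Unadjusted, 2 were below 0.05. A peak was placed by its centre in 3 zones: inside the 11.7 Mb of domains, at the edges (5 kb to either side of each end, 1.08 Mb) and up to 50 kb beyond (4.99 Mb). The edges share sequence with both other zones. SOX9 had 75 centres inside, which is 6.43 per Mb, against a rotation mean of 5.69 and a range of 2.23 to 10.8 per Mb (ratio 1.13, two-sided permutation p = 0.577, adjusted 0.867 over 15). SOX6 had 86, or 7.38 per Mb, against 7.52 (2.57 to 14.5; ratio 0.982, permutation p = 1, adjusted 1). Both values depended on the setting. With stretches of 100 kb or more without any peak taken out of the rotations, the ratios were 0.730 for SOX9 and 0.639 for SOX6 (permutation test, adjusted p = 0.158 and 0.0539). With a span of 50 kb or more they were 1.82 and 1.76 and passed, as they did at 1.77 and 1.78 with joining within 25 kb. The counts inside the 54 are 0.527% of the SOX9 and 0.463% of the SOX6 peaks on the 19 autosomes.

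The active marks did not pass the test inside the domains either, and H3K27ac stood highest against its rotations. H3K27ac had 420 centres inside, 36.0 per Mb, against a mean of 20.2 and a range of 7.29 to 45.7 (ratio 1.79). As many were reached by 7 of 1000 rotations (permutation p = 0.0160, adjusted 0.120). Without chromosome 3 the ratio was 2.39 and passed (permutation test, adjusted p = 0.02997), and with a span of 200 kb or more it was 0.963. H3K4me1 had 542 centres, 46.5 per Mb against 37.5 (ratio 1.24, permutation p = 0.306, adjusted 0.671). H3K4me3 had 90, 7.72 per Mb against 8.69 (ratio 0.889, permutation p = 0.693, adjusted 0.867). With peakless stretches taken out, H3K4me3 passed as fewer than rotations gave (ratio 0.573, permutation test, adjusted p = 0.0150). The same held for H3K4me3 peaks above their median score (ratio 0.232, permutation test, adjusted p = 0.02997).

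At the edges the counts were small. SOX9 had 8 centres and SOX6 had 6, against rotation means of 6.44 and 8.44, and the active marks had 33 (H3K27ac), 52 (H3K4me1) and 9 (H3K4me3), against 22.4, 41.5 and 9.44. The adjusted p of the 5 edge comparisons ranged from 0.671 to 1 by the permutation test. Rotations put between 0 and 19 SOX9 centres there, so differences of a few peaks were not detectable.

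In the 50 kb beyond the domains, SOX6 had 14 centres, 2.81 per Mb, against a rotation mean of 7.80 and a range of 2.21 to 15.8 (ratio 0.360). Of 1000 rotations, 1 had as few (permutation p = 0.004, adjusted 0.0599), so the call was just missed. It was made with SOX6 peaks above their median score (ratio 0.209, permutation test, adjusted p = 0.02997), and with peakless stretches taken out of the rotations (ratio 0.259, adjusted p = 0.0150). The ratio turned above 1 in 3 settings, none of which passed. It was 2.501 with H3K9me3 peaks joined within 5 kb (13 domains), 1.17 with joining within 25 kb (278 domains) and 1.21 with a span of 50 kb or more (246 domains). SOX9 had 19 centres beyond, 3.81 per Mb against 5.95 (ratio 0.641, permutation p = 0.184, adjusted 0.671). H3K27ac and H3K4me1 had 129 and 198, at ratios of 1.23 and 1.03, and H3K4me3 had 31 at a ratio of 0.701 (permutation test, adjusted p from 0.671 to 0.980).

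**Figure D2:**
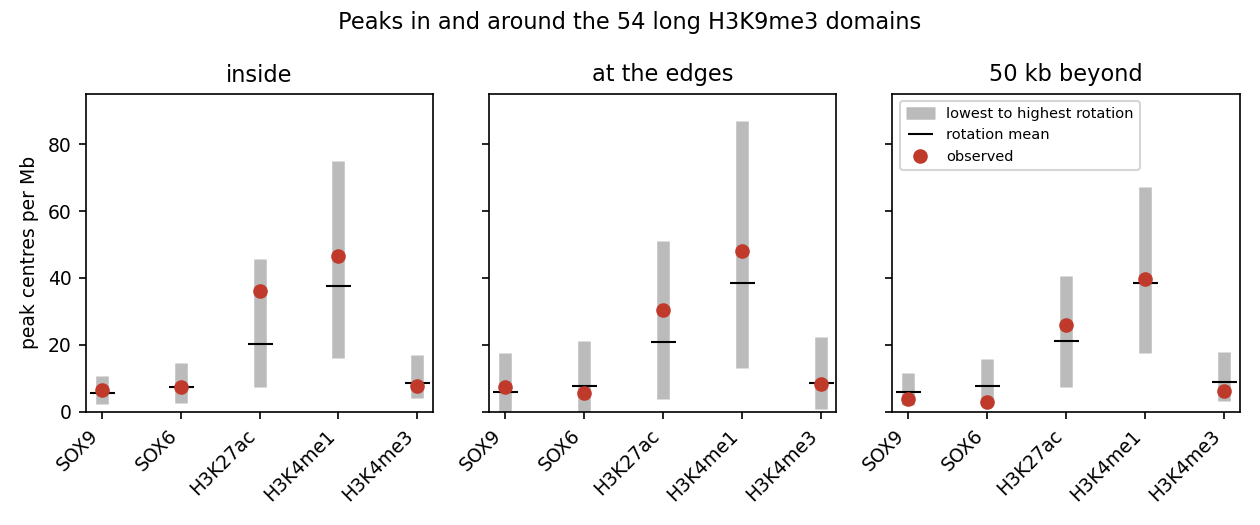
Peak centres per Mb (y axis) of the 5 lists inside the 54 domains, within 5 kb of their ends and up to 50 kb beyond. Red points are observed values, black dashes the mean and grey bars the lowest to highest of 1000 rotations. All observed values lie within the bars, with H3K27ac inside (36.0 per Mb) near the top of its bar and SOX6 beyond (2.81 per Mb) near the bottom.

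By distance from the domain ends, pooled over all domains, H3K27ac and H3K4me1 fell away just outside. H3K27ac had 38.9 to 50 centres per Mb in the 10 kb steps of the first 50 kb inside, then 16.9 in the first 10 kb outside and 18.7 in the next, and 36.7 from 20 to 30 kb. For H3K4me1 the values were 52.8 to 67.6 inside, then 26.2 and 37.5, and 48.9 from 20 to 30 kb. H3K9me3 itself is at 0 in the first 10 kb outside because the joining rule leaves no peak there, and it is at 132.5 per Mb from 20 to 30 kb. Inside, 78.6% of the H3K27ac and 73.8% of the H3K4me1 centres lay within H3K9me3 peaks. The fall of these marks therefore cannot be read apart from how the ends were defined, and the part of the rule in it was not tested. SOX6 had 7.41 to 13.0 per Mb inside and 0.987 to 5.12 in the 5 steps to 50 kb outside, and then 8.68 from 50 to 60 kb. With 1 to 5 SOX6 peaks in each of those outer steps, their order carries no weight. Of the 108 domain ends, 54 had their next H3K27ac peak 100 kb or more away, and 12 had a SOX9 peak within 50 kb.

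**Figure D3:**
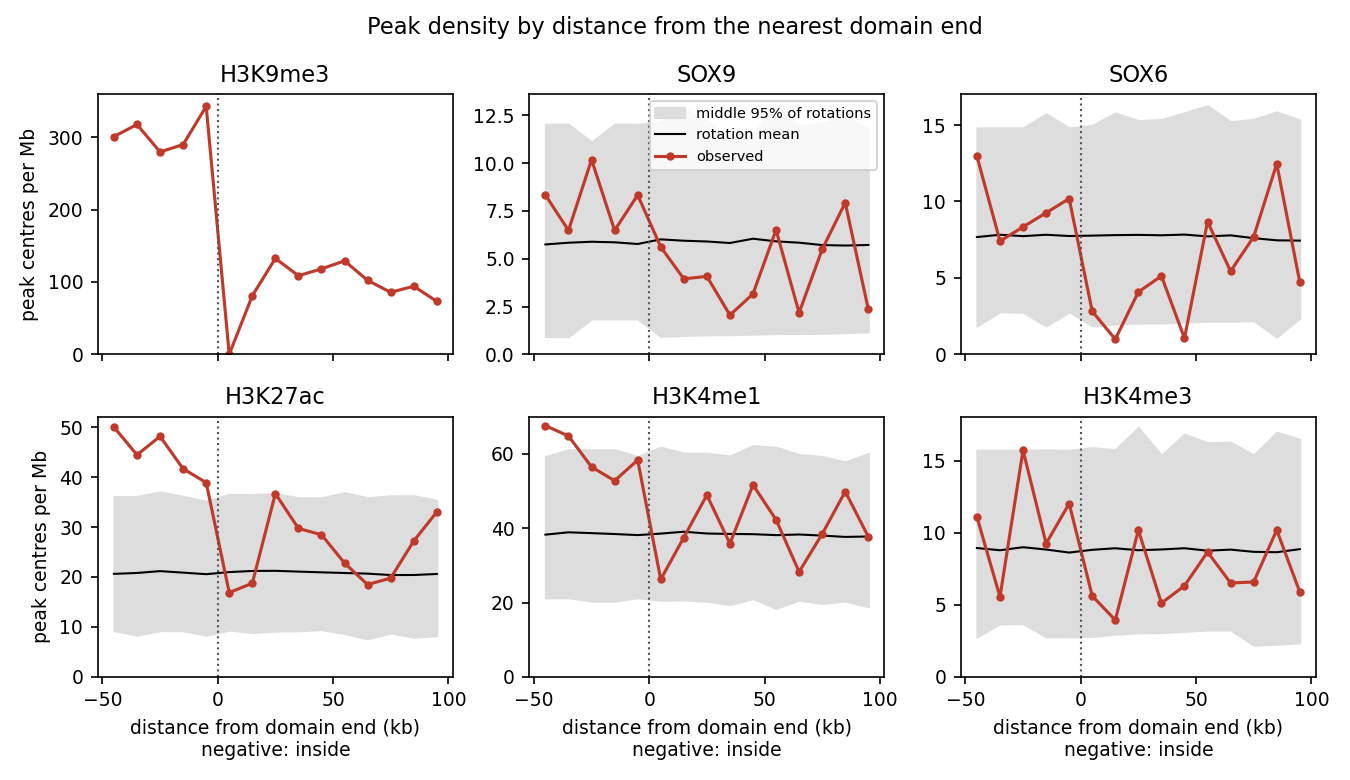
Peak centres per Mb (y axis) in 10 kb steps from 50 kb inside to 100 kb outside the nearest domain end (x axis, kb), 1 panel for each list. Red lines are observed values, black lines the rotation mean and grey bands the middle 95% of 1000 rotations; H3K9me3 has none, since it chose the domains. H3K27ac lies above its band inside (38.9 to 50 per Mb) and within it in the first 10 kb outside (16.9 per Mb), where the joining rule leaves no H3K9me3 peak.

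The totals inside hid a wide spread among domains. Of the 54, 20 had no H3K27ac centre, 15 had 1 to 4 and 19 had 5 or more. SOX9 was present in 23 (42.6%, 95% Wilson interval 30.3% to 55.8%) and SOX6 in 22 (40.7%, 28.7% to 54.03%), against rotation means of 46.0% and 50.5%. Any active mark was present in 41 (75.9%, 63.1% to 85.4%), against 74.6%. These intervals cover counting error only. Both SOX factors had a peak in 15 domains and neither in 24.

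Of the 20 domains without H3K27ac, 11 lay in the last 10% of a chromosome, and they also held few other peaks. Over their 5404 kb they had 5 SOX9, 7 SOX6, 13 H3K4me1 and 4 H3K4me3 centres. In 8 domains no peak of the 5 lists was found. These are the 3 domains of chromosome 5 (from 162159189 to 162322445, 172066630 to 172184692 and 173465534 to 173606966, rn5), 2 on chromosome 9 (from 12011832 to 12144061 and 41645436 to 41748611), 2 on chromosome 13 (from 112829332 to 112981436 and 113509755 to 113616651) and 1 on chromosome 19 (from 68761827 to 68897698). Taken by position, the 17 domains of the last 10% held 3.68 H3K27ac and 1.95 SOX9 centres per Mb. The 27 of the middle held 61.7 and 11.5, and the 10 of the first 10% 41.9 and 1.90. The high SOX9 value of the middle came from 5 domains described next, which held 53 of its 63 SOX9 and 165 of its 337 H3K27ac centres. The other 22 middle domains held 2.15 SOX9 and 36.9 H3K27ac centres per Mb.

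At the other extreme, 5 domains held most of the SOX peaks. The 5 with the largest share of span under H3K27ac were also the 5 with most SOX peaks. They make up 6.89% of the summed span and held 53 of 75 SOX9 centres (70.7%), 60 of 86 SOX6 centres (69.8%), 39.3% of the H3K27ac centres and 31.5% of the H3K4me1 centres. The other 49 domains held 22 SOX9 centres, 2.03 per Mb, against a rotation mean of 5.56 and a range of 1.84 to 10.4. For SOX6 they held 26, or 2.40 per Mb, against 7.33 (2.30 to 14.1). H3K27ac in these 49 was at 23.5 per Mb, against 19.7. The 5 were taken out for their values, so these numbers are descriptions with no test.

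The most active of all was on chromosome 7 from 26809072 to 27051807 (rn5). It spans 243 kb, of which H3K27ac covered 65.8%, H3K4me1 65.7% and H3K9me3 51.4%, and it held 25 SOX9 and 28 SOX6 centres. Without this domain alone the SOX9 density inside all domains went from 6.43 to 4.38 per Mb and that of SOX6 from 7.38 to 5.08. The domain on chromosome 9 from 25994199 to 26141559 was 41.8% under H3K27ac with 6 centres of each SOX factor. Chromosome 16 had a pair, from 49520781 to 49655512 (35.2%, 8 SOX9 and 7 SOX6) and from 47738254 to 47854355 (25.5%, 5 and 8). The last was on chromosome 10 from 95265320 to 95427355 (16.6%, 9 and 11).

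These 5 domains held some of the highest-scoring SOX peaks of the series. A SOX9 peak on chromosome 9 from 26089367 to 26090939 had a score of 3032, above 99.9% of the SOX9 peaks on the 19 autosomes. On chromosome 16 a SOX9 peak from 49610056 to 49611743 had a score of 2750. SOX6 peaks on chromosome 7 from 26832718 to 26833744 and from 27043701 to 27044386 had scores of 2849 and 2709. Each of these 4 overlapped H3K27ac and a peak of the other factor, and each had its centre between H3K9me3 peaks, not on one. Of the 5 domains, 4 lie on chromosomes 7, 9 and 16. There the methylation input, in reads with no mismatch, was 1.93 to 2.09 times the median chromosome. The 19 domains on these chromosomes held 84.5 H3K27ac and 14.9 SOX9 centres per Mb (rotation means 26.1 and 7.48), and the 35 on other autosomes 18.1 and 3.29 (18.0 and 5.02). Rotations ranged from 4.77 to 89.6 for H3K27ac and 1.59 to 18.4 for SOX9 on these chromosomes. On the other autosomes they ranged from 4.47 to 47.9 and from 1.06 to 10.3, so each observed value lay within its range. Of the 47 SOX9 centres on chromosomes 7, 9 and 16, 44 lay in the 4 domains just named. The other 15 domains there held 3 SOX9 centres, 1.20 per Mb, and 47.1 H3K27ac centres per Mb. On the other autosomes, without the domain of chromosome 10, the values were 2.28 and 16.4 per Mb, so for SOX9 the order of both groups of chromosomes turned. The part of the input level in these values was not tested.

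A further 8 domains had H3K9me3 peaks of very high score. Their median H3K9me3 scores ranged from 430.1 to 1690.5, while the next domain below stood at 254; this group was set apart after the values were seen. They held 55 of the 62 H3K9me3 peaks with a score of 3100 or more found in the 54 domains, of 227 on all 19 autosomes. The highest was on chromosome 9 from 11244139 to 11446003 (rn5). Chromosome 14 had a pair, from 94032460 to 94163800 (median score 1338) and from 46702316 to 46863557 (479). Chromosome 9 had a further pair, from 7365841 to 7512127 (1116) and from 7553214 to 7704695 (1041). Chromosome 1 had 1 from 56842324 to 56979944 (955), and chromosome 16 had 2, from 21670214 to 21833885 (433) and from 21909976 to 22060653 (430.1).

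In these 8 domains the active marks sat on the H3K9me3 peaks. Of 171 H3K27ac centres, 169 (98.8%) lay within an H3K9me3 peak, as did 179 of 182 H3K4me1 centres (98.4%) and all 33 H3K4me3 centres, while H3K9me3 covered 36.6% of the span. The H3K27ac peaks there had a median width of 658 bp and a median score of 103, against 831 bp and 151 in the 41 domains of neither group. The 5 most acetylated domains stood at 1253 bp and 231, but they were chosen for their H3K27ac cover. SOX peaks were few, with 3 SOX9 and 4 SOX6 centres in 2 and 1 of the 8 domains. The domain on chromosome 14 from 46702316 alone held 25 of the 33 H3K4me3, 2 of the 3 SOX9 and all 4 SOX6 centres. Without it the H3K4me3 density inside all 54 domains went from 7.72 to 5.65 per Mb. H3K27ac has an input of its own, and the methylation marks share another. At domain level, the median H3K9me3 score and the H3K27ac cover had a Spearman's rho of 0.564 over 54 domains, a description. Reads per site and sequence mappability were not used here, and what part they have in peaks of opposing marks at the same sites was not tested.

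**Figure D4:**
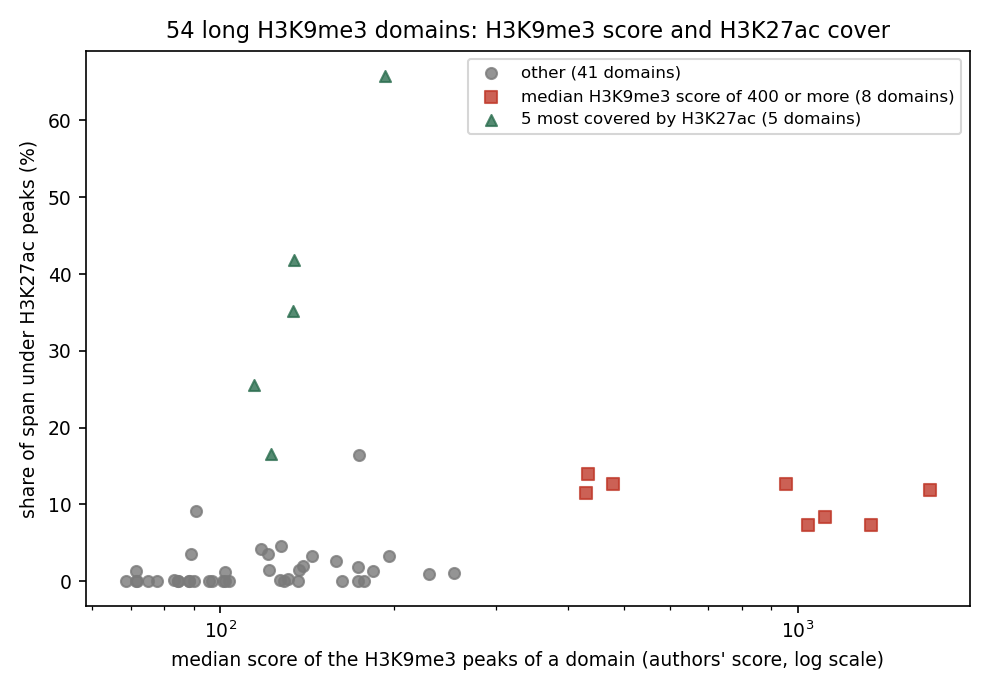
Each point is 1 of the 54 domains. The x axis is the median deposited score of its H3K9me3 peaks on a log scale, and the y axis the share of its span under H3K27ac peaks in percent. The 8 squares with scores of 430.1 or more have 7.26% to 13.9% of their span under H3K27ac, and the 5 triangles, with 16.6% to 65.8%, have scores of 114 to 193.

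In the 5 most acetylated domains the arrangement varied from domain to domain. Together, 61.8% of the H3K27ac, 50.9% of the H3K4me1 and 16.7% of the H3K4me3 centres lay within H3K9me3 peaks, which covered 40.3% of the span. In the domain on chromosome 7, 53 of 64 H3K27ac centres (82.8%) and 43 of 59 H3K4me1 centres lay within H3K9me3 peaks. In that on chromosome 16 from 47738254, 4 of 18 and 1 of 23 did, and in the 4 domains other than that of chromosome 7 together 48.5% of the H3K27ac centres. Of the SOX9 centres of all 5, 32.1% did and of the SOX6 centres 35.0%. The 41 remaining domains held 84 H3K27ac centres, 8.74 per Mb, of which 70.2% lay within H3K9me3 peaks, and 19 SOX9 and 22 SOX6 centres.

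Pooled over all 54 domains, SOX centres fell within H3K9me3 peaks about as often as the cover of the span, and centres of the active marks more often. The cover was 38.7%. Within H3K9me3 peaks lay 32 of 75 SOX9 centres (42.7%, Wilson interval 32.1% to 53.9%) and 37 of 86 SOX6 centres (43.0%, 33.1% to 53.6%). For the marks the shares were 78.6% (74.4% to 82.2%) for H3K27ac, 73.8% (69.9% to 77.3%) for H3K4me1 and 64.4% (54.2% to 73.6%) for H3K4me3. Peaks of a domain are not independent, so these intervals are too narrow. The pooled SOX shares joined unlike domains. For SOX9 and SOX6 they were 32.1% and 35.0% in the 5 most acetylated domains (cover 40.3%). In the 41 remaining domains they were 63.2% of 19 and 54.5% of 22 centres (cover 38.8%). In the 8 domains of high H3K9me3 score all 3 and 4 centres lay within H3K9me3 peaks.

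Pooled over the domains, SOX peaks between the H3K9me3 peaks differed from those on them in what they carried. Of the 43 SOX9 peaks between, 38 overlapped H3K27ac (88.4%) and 31 overlapped SOX6 (72.1%). Of the 32 on H3K9me3 peaks, 19 (59.4%) and 8 (25%) did. For SOX6 the shares were 83.7% and 65.3% of 49 between, against 62.2% and 21.6% of 37 on H3K9me3 peaks. Median scores were 117 between and 63.1 on H3K9me3 peaks for SOX9, and 180 and 98.1 for SOX6. The peaks on and between H3K9me3 peaks also came from different domains. The 5 most acetylated domains held 53 of all 75 SOX9 centres, but 17 of the 32 on H3K9me3 peaks. For SOX6 they held 60 of 86, but 21 of 37. The contrast was not taken within the same domains, and these are descriptions with no test.

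Peaks of the active marks inside the domains were smaller than is usual for their lists. H3K4me3 centres inside had a median score of 193, against 1693 for the list on the 19 autosomes, and 12 of 90 (13.3%) were above the list median. For H3K27ac the medians were 141 and 328, with 28.8% above, and for H3K4me1 129 and 155, with 45.4% above. SOX9 had 79.4 and 90.2, with 46.7% above, and SOX6 124 and 105, with 59.3% above. Median widths of H3K4me3 peaks were 765.5 bp inside and 1507 bp in the list, and those of H3K27ac 822.5 and 1213 bp. The 5 most acetylated domains, chosen for their H3K27ac cover, differed in part. There H3K4me1 had a median score of 359 and a median width of 1172 bp, against 948 bp in the list. H3K27ac had a median width of 1253 bp there. Its median score of 231, and that of 289 for H3K4me3, stayed below those of their lists. When each list was limited to peaks above its median score, the ratio of H3K4me3 inside to rotations was 0.232 (permutation test, adjusted p = 0.02997).

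Shorter joined regions on the same autosomes held the other lists at higher density. The 192 regions of 50 to 100 kb held 14.6 SOX9, 19.4 SOX6 and 68.2 H3K27ac centres per Mb, at ratios to their rotation means of 2.39, 2.42 and 3.20. The 1064 regions of 20 to 50 kb held 14.8, 18.1 and 59.9, at ratios of 2.53, 2.36 and 2.96. In the 54 long domains the ratios were 1.13, 0.982 and 1.79. H3K4me3 went from a ratio of 1.41 in the shortest class to 1.30 and 0.889, while the H3K9me3 cover rose from 23.9% to 27.9% and 38.7%. The difference between classes was not tested.

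**Figure D5:**
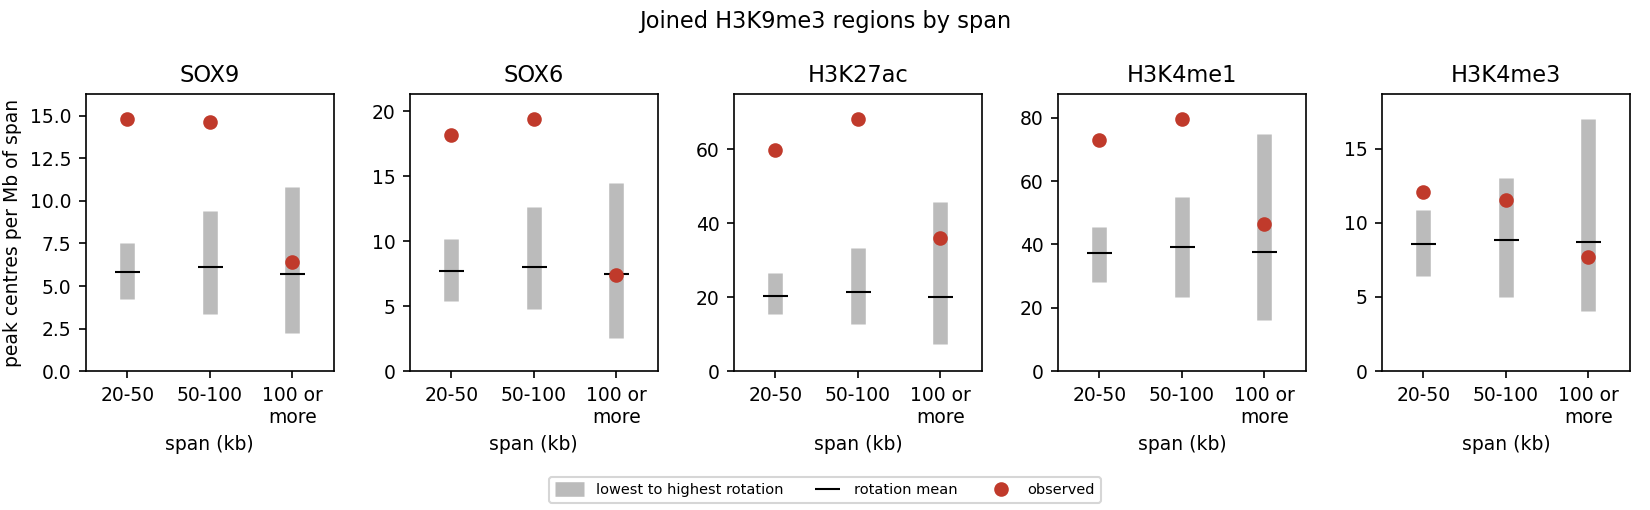
Peak centres per Mb of span (y axis) of 5 lists in joined H3K9me3 regions of 20 to 50 kb (1064 regions), 50 to 100 kb (192) and 100 kb or more (54). Red points are observed values, black dashes rotation means and grey bars the lowest to highest of 1000 rotations. SOX9, SOX6, H3K27ac and H3K4me1 lie above their bars in both shorter classes and within them in the long domains.

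The 19 long domains of chromosome 12 had a median span of 171 kb and a cover of 33.3%. Per Mb they held 1.997 H3K27ac, 3.396 H3K4me1 and 0.599 H3K4me3 centres, at ratios to their rotation means of 0.0732, 0.0741 and 0.0470, where the 54 domains had 1.79, 1.24 and 0.889. For SOX9 and SOX6 the ratios were 0.255 and 0.303. Each observed value lay within the range of its rotations on this single chromosome. These ranges were wide, from 1.40 to 48.7 per Mb for H3K27ac, 2.40 to 76.5 for H3K4me1 and 0.399 to 22.4 for H3K4me3. For SOX9 and SOX6 they were 0.599 to 13.0 and 1.20 to 18.8. The difference between the chromosomes was not tested.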

How the data were processed

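Each immunoprecipitation was deposited as 1 peak list with a score for every peak, and the peak names in the files carry the name MACS. No source used here states the scale of the deposited score, and it was compared within a list only. CASAVA 1.8 and the build rn5 come from the submitters' processing notes. The inputs were deposited as raw read counts per chromosome (36873004 to 131858579 reads, 53.4% to 53.5% aligned), per the file headers. The depth of the immunoprecipitated libraries was not used here. The aligner, the caller's version and its settings were not given in the sources used here.

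H3K9me3 peaks were joined with numpy 2.4.6 and pandas 2.3.3 in Python 3.11.15, with shares and correlations from scipy 1.17.1. Domains, not peaks, were rotated, with 1000 shifts per autosome. The permutation p is two-sided (smallest possible 0.002) and adjusted by Benjamini-Hochberg over 15 comparisons. The test was run on made lists with known answers, with peaks at random positions along each chromosome. These lists lack the clustering of the deposited peaks, so they do not show how the p behaves on clustered lists. Printed starts count from 1. Regions named are the 10 longest, the 5 most covered by H3K27ac, the 5 with most SOX peaks and 3 to each side of the span bound. The 8 domains without other peaks, the 8 of high H3K9me3 score and single SOX peaks were named after their values were seen. The members and groups were chosen with earlier results of these data known. No genome or annotation of rn5 was used here, so no gene or sequence is given.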

Additional observations from a re-analysis of the deposited data

How the results depend on the processing

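Of 193 recomputed values, 119 kept their direction and their side of the threshold, or for the number of domains stayed within 1.5 times. Values are ratios to rotation means, and passed means an adjusted permutation p below 0.05. Joining H3K9me3 peaks within 5 kb left 13 domains. Ratios then crossed 1 for SOX9 beyond (2.58), SOX6 inside (1.19), at the edges (2.57) and beyond (2.501), H3K27ac at the edges (0.558), H3K4me1 inside (0.557), at the edges (0.295) and beyond (0.695) and H3K4me3 beyond (1.32), and none passed. Joining within 25 kb gave 278 domains. SOX9 inside (1.77) and at the edges (1.59), H3K27ac inside (2.22), at the edges (1.93) and beyond (1.49) and H3K4me1 inside (1.59), at the edges (1.45) and beyond (1.30) passed. SOX6 inside (1.78) and at the edges (1.804) turned and passed, and SOX9 beyond (1.28), SOX6 beyond (1.17) and H3K4me3 inside (1.01) and at the edges (1.08) turned without passing. A span of 50 kb gave 246 domains. SOX9 inside (1.82) and at the edges (1.73), H3K27ac inside (2.54), at the edges (2.17) and beyond (1.70) and H3K4me1 inside (1.66) and at the edges (1.54) passed. SOX6 inside (1.76) and at the edges (1.52) turned and passed, and SOX9 beyond (1.25), SOX6 beyond (1.21) and H3K4me3 inside (1.11) and at the edges (1.01) turned. The span of 50 kb admits 192 regions of 50 to 100 kb, which carry more SOX and active peaks per Mb; what joining within 25 kb added was not examined. A span of 200 kb left 14 domains, and SOX6 at the edges (1.43), H3K27ac inside (0.963) and H3K4me1 inside (0.554) turned.

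H3K9me3 peaks above their median score gave 27 domains, with SOX6 at 1.03 inside and 1.44 at the edges. With at least 25% under H3K9me3 peaks, SOX6 inside was 1.03 and H3K4me3 at the edges 1.04. Without chromosome 3, SOX6 inside was 1.18, H3K4me3 inside 1.19 and at the edges 1.14, and H3K27ac inside passed (2.39). Without chromosome 9, an alternative chosen after seeing the data because it holds as many domains, SOX6 inside was 1.12 and H3K4me3 at the edges 1.16. With the other lists above their median score, SOX9 beyond (0.205), SOX6 beyond (0.209) and H3K4me3 inside (0.232) passed, while SOX9 at the edges (0.624), SOX6 inside (1.17), H3K27ac at the edges (0.556) and beyond (0.990) and H3K4me1 at the edges (0.932) turned. Stretches of 100 kb or more without any peak make up 41.5% of the 19 autosomes. With these taken out of the rotations, SOX9 beyond (0.459), SOX6 beyond (0.259) and H3K4me3 inside (0.573) and beyond (0.502) passed. SOX9 inside (0.730) and at the edges (0.863), H3K27ac beyond (0.888) and H3K4me1 inside (0.805), at the edges (0.856) and beyond (0.741) turned. H3K4me3 at the edges was 1.01 with an edge of 10 kb, and H3K4me1 beyond was 0.893 with a reach of 25 kb. Why values moved was not tested for any setting, including the span of 50 kb.

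No paired analysis was possible because each antibody has 1 library. Peak lists without read depth limit all densities to what passed the authors' threshold.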
